A study of Mus musculus with 16 samples.

Results

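The genes described here encode 10 acute phase proteins, plasma proteins whose production changes during inflammation and tissue injury. They are Saa1, Saa2, Saa3 and Saa4 (serum amyloid A), Orm1 and Orm2 (orosomucoid, or alpha-1-acid glycoprotein), Lcn2 (lipocalin 2), Hp (haptoglobin), Apcs (serum amyloid P) and Itih4 (inter-alpha-trypsin inhibitor heavy chain 4). They were picked by symbol from the 32989 genes of the liver and kidney tables, and each of the 10 symbols stood on 1 row of each table. The samples came from male C57BL/6J mice kept for 85 weeks in either of 2 lighting schedules and killed at 97 weeks of age. LD mice (L63, L65, L86 and L104) lived in a fixed cycle with lights on from 8:00 to 20:00. ADV mice (A75, A91, A94 and A115), the chronic jet lag group, had the light phase moved 8 h earlier every 4 days. Each of the 8 mice gave 1 liver and 1 kidney library of poly(A)-selected, stranded, paired-end RNA-seq, 16 libraries in all, from tissue taken in the early hours of the dark phase.

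The acute phase response is mostly a hepatocyte programme. Cytokines released by activated macrophages, chiefly interleukin 6 and interleukin 1, reach the liver through the blood. Interleukin 6 acts through JAK kinases and the transcription factor STAT3, interleukin 1 acts through NF-kappaB, and C/EBP factors act at the promoters of many of the same genes. The products bind lipid, haem, iron, microbial surfaces or drugs in the plasma, and several are used as blood markers of inflammation. Lcn2 is known outside the liver as well, since neutrophils store the protein and injured kidney tubules make it.

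Values are FPKM, fragments scaled to exon length and to the library total, which allow levels of different genes to be set side by side. Comparisons of ADV with LD were made by limma on log2(FPKM + 0.1) over all expressed genes, so the fold changes of the lowest genes are understated. Adjusted p-values are Benjamini-Hochberg values over the 12835 genes tested in the liver or the 14452 tested in the kidney. A two-sided exact permutation test over the 70 ways to assign 4 of 8 mice was also run for each gene, and its smallest possible p is 0.0286. Liver libraries held 21092501 to 24285055 fragments on genes and kidney libraries 15688495 to 18043306. The A94 liver and the A115 kidney stood apart, with mean correlations to the other libraries of the organ of 0.941 and 0.858, against 0.977 to 0.982 and 0.932 to 0.964 for the rest. Mitochondrial genes took 33.8% of gene fragments in the A115 kidney and 9.43% to 18.02% in the other kidneys. The sequencing came from 2 providers and 2 instruments, and since no source used here says which library came from which, provider and lighting schedule cannot be told apart.

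The family members lie close together in the genome (mm10). Saa3 (chr7:46711998-46715676), Saa4 (chr7:46727998-46732543), Saa1 (chr7:46740499-46742980) and Saa2 (chr7:46751833-46754314) sat within 42.3 kb, with Saa1 and Saa2 running away from each other from starts 8852 bases apart. Orm1 (chr4:63344556-63348163) and Orm2 (chr4:63362449-63365877) sat within 21.3 kb on both sides of a further copy, Orm3. Lcn2 (chr2:32384637-32387739), Hp (chr8:109575128-109579172), Apcs (chr1:172893961-172895054) and Itih4 (chr14:30886476-30901986) each stood alone. Over whole transcripts Saa1 and Saa2 were 93.9% identical and Orm1 and Orm2 90.97% identical. Reads of poor mapping quality had been removed, so the split of reads between such copies is less certain than the values of the other genes. Of all stretches of 100 bases in the Orm1 transcript 6.95% were also in Orm2, whereas Saa1 and Saa2 shared none.

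The 250 bases before the transcription start were read from RefSeq (GRCm38.p6) for 8 of the 10 genes, all but Hp and Orm1. They were searched on both strands for TTGCNNAA, a core letter pattern of C/EBP sites, and TTCNNNGAA, the core of STAT sites, and also for the kappaB consensus. The C/EBP pattern was present in 6 of the 8 (all 4 Saa genes, Orm2 and Lcn2) and in 9.56% of 32851 promoters. The STAT pattern was present in Apcs and Itih4 and in 7.02% of promoters, and the kappaB consensus was in 0 of the 8 and in 3.90% of promoters. The sequences below are the promoters of the inducible genes that differed most between mice, with Saa4 for contrast, and capitals mark the pattern found: C/EBP in all except Apcs, where it is STAT. They lie at chr7:46742981-46743230, minus strand (Saa1), chr7:46751583-46751832, plus strand (Saa2), chr7:46732604-46732853, minus strand (Saa4), chr4:63362199-63362448, plus strand (Orm2), chr2:32387740-32387989, minus strand (Lcn2) and chr1:172895055-172895304, minus strand (Apcs).
Saa1: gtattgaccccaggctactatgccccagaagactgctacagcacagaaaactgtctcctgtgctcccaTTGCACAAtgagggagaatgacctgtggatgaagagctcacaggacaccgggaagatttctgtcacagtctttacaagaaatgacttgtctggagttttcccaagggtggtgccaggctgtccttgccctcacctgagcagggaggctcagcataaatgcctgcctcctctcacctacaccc
Saa2: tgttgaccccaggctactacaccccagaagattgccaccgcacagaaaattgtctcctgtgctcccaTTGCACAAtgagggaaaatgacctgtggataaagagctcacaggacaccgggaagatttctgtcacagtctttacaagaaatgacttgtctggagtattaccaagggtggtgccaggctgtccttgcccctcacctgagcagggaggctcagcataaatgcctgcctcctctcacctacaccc
Saa4: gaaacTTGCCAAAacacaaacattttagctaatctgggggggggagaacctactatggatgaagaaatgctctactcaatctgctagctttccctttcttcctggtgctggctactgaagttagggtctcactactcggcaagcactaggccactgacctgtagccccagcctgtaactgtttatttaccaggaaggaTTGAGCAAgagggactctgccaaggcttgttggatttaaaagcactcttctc
Orm2: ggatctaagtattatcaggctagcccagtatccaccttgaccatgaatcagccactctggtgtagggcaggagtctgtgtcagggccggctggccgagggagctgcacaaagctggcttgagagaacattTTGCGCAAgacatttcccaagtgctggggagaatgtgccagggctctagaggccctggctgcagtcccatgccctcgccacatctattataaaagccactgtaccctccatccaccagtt
Lcn2: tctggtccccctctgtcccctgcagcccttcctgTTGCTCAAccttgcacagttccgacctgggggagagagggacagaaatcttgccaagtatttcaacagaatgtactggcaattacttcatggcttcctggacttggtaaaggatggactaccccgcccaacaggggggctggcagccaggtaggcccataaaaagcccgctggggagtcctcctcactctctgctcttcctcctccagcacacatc
Apcs: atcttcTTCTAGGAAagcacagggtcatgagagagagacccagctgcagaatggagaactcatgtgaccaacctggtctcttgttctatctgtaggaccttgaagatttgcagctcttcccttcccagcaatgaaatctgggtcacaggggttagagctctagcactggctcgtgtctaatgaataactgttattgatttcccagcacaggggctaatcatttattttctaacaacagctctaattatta
The Saa1 and Saa2 windows were 94.8% identical and carried the pattern at nearly the same place, 182 and 183 bases before the start. Saa4, the constitutive member of the family, shared 42.6% of aligned positions with Saa1 and held the pattern at 245 and 52 bases before its start. In Orm2 it began 120 bases and in Lcn2 216 bases before the start, and the STAT pattern of Apcs began 244 bases before it. A match of letters is a description of the window and does not show that a factor binds there.

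In the liver all 10 genes were expressed and tested, and 0 of the 10 passed an adjusted p of 0.05, against 0.00779% of all genes (1 of 12835). The means nevertheless lay on the same side for nearly all of them: 9 of the 10 had a log2 fold change above 0, against 65.7% of all genes, and the median was 0.998 for the 10 genes and 0.10 for all genes tested. Unadjusted p-values of limma lay under 0.05 for 5 genes (Saa3, Orm1, Orm2, Lcn2 and Apcs), all higher in ADV, against 11.8% of all genes in either direction and 8.65% higher in ADV. Without the A94 liver the same 5 genes passed that unadjusted limit, against 14.4% of all genes, all 10 log2 fold changes were above 0, against 54.5%, and the medians were 0.83 for the 10 genes and 0.03 for all genes. These shares describe a short list and carry no test. In pieces of whole liver, a gene's level could differ because fewer or more cells of a type were present or because each cell held less or more RNA, and these cannot be told apart.

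**Figure D1:**
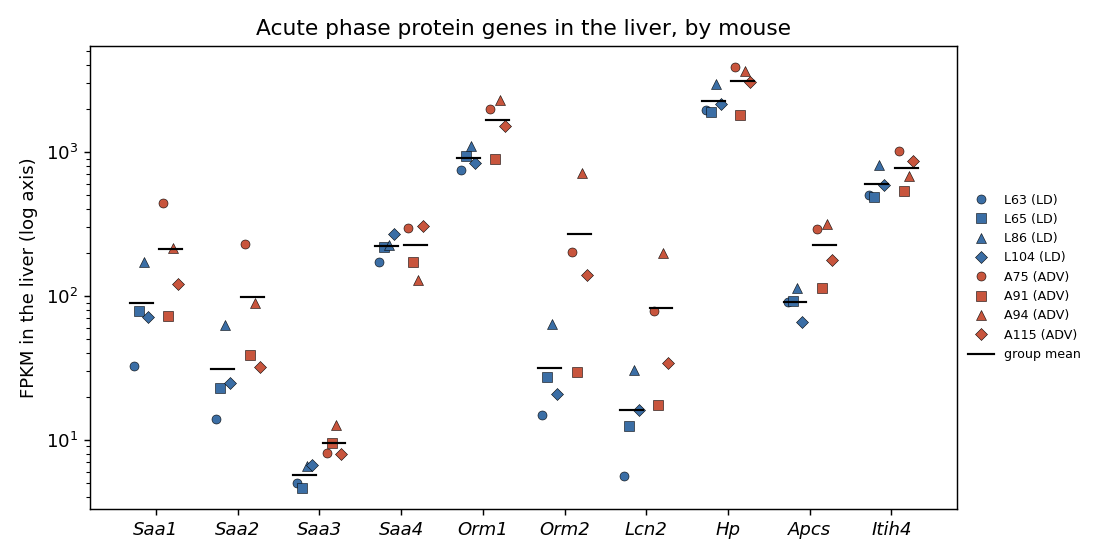
Liver level of the 10 acute phase protein genes in each mouse, as FPKM on a log axis, LD in blue and ADV in red, with a black bar for the mean of 4 mice. For Saa3 and Apcs all 4 ADV mice lie above all 4 LD mice; for Orm2 and Lcn2 the ADV mice A75 and A94 lie far above the LD mice while A91 lies among them.

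Saa1 and Saa2 encode the circulating serum amyloid A apolipoproteins, which hepatocytes release on high density lipoprotein and which rise more than almost any other plasma protein in acute inflammation. Saa1 was at 32.4, 78.3, 173 and 71.4 FPKM in the LD livers L63, L65, L86 and L104, and at 444, 72.5, 214 and 121 in the ADV livers A75, A91, A94 and A115. A75 was the highest of all 8, but A91 lay within the LD range, and the LD mouse L86 was above 2 of the ADV mice. The means were 88.7 ± 59.5 FPKM in LD and 213 ± 165 in ADV (SD, n = 4 each), which differed by 1.18 on the log2 scale (SE 0.60, 95% interval -0.17 to 2.53; limma, adjusted p = 0.457). The exact permutation p was 0.171, and the difference was 0.78 without L63 and 0.72 without A75.

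Saa2 followed the same mice at a lower level. It was at 13.9, 22.9, 62.8 and 24.7 FPKM in LD and at 230.1, 39.0, 89.9 and 32.0 in ADV, in the same order of mice. The difference was 1.43 on the log2 scale (SE 0.64, 95% interval -0.0041 to 2.85), with an adjusted p of 0.424 by limma and an exact permutation p of 0.143. Without A75 it was 0.86. The ratio of Saa1 to Saa2 stayed between 1.86 and 3.78 in all 8 livers.

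Saa3 encodes a serum amyloid A that macrophages and adipocytes make as well as liver, and it was the lowest of the 10 genes. It was at 5.04, 4.66, 6.57 and 6.70 FPKM in LD and at 8.11, 9.52, 12.6 and 7.93 in ADV. Every ADV liver was above every LD liver, which held for Saa3 and Apcs, 2 of the 10 genes, against 6.94% of all genes tested. The log2 fold change was 0.72 (SE 0.18, 95% interval 0.31 to 1.12), with an adjusted p of 0.296 by limma and an exact permutation p of 0.0286, the smallest this design allows. Of 9 macrophage markers 0 passed the adjusted limit, and all 9 had a log2 fold change above 0, against 65.7% of all genes, from Timd4 (0.43) to Csf1r (0.96). They summed to 118 to 189 FPKM in LD, to 424 in A94 and to 176 to 237 in the other ADV livers. The part of these cells in the Saa3 values was not tested.

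Saa4 encodes a constitutive apolipoprotein of high density lipoprotein that is not known to respond strongly to inflammation. Its liver level was 174, 218, 225 and 270.2 FPKM in LD and 295, 171, 129.8 and 308 in ADV. The ADV mice lay both above and below the LD mice, and A94, among the highest for most of the other genes, was the lowest of all 8. The log2 fold change was -0.05 (SE 0.28, 95% interval -0.67 to 0.57; adjusted p = 0.949 by limma), and its sign turned when L104, A91 or A94 was left out. Saa4 lies between Saa3 and Saa1 on the chromosome.

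Orm1 and Orm2 encode orosomucoids, abundant glycoproteins that bind drugs and lipids in plasma and dampen immune responses. Orm1 was at 747, 934, 1109 and 841 FPKM in LD and at 2005, 897, 2287 and 1508 in ADV. A75, A94 and A115 exceeded every LD liver and A91 did not. The means were 908 ± 154 and 1674 ± 609.8 FPKM (SD, n = 4 each), and the log2 fold change was 0.81 (SE 0.28, 95% interval 0.19 to 1.44), with an adjusted p of 0.362 by limma and an exact permutation p of 0.0857.

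Orm2 had the largest difference of the 10 genes. It was at 14.9, 27.4, 64.1 and 20.9 FPKM in LD and at 203, 29.7, 714 and 139 in ADV, so that A94 was 24.0 times A91 within the same group. On the log2 scale the difference was 2.52 (SE 0.84, 95% interval 0.64 to 4.40), above 99.97% of all genes tested in the liver, with an adjusted p of 0.357 by limma and an exact permutation p of 0.0571. Without A94 it was 1.79, and without the other mice in turn it reached 3.32 at most. Because Orm1 varied less, the ratio of Orm1 to Orm2 was 17.3 to 50.3 in the LD livers, and 9.89, 30.2, 3.20 and 10.8 in A75, A91, A94 and A115. Orm3, the copy between them and no member of the group, was lower still, at 5.57 to 14.04 FPKM in LD and 14.24 to 32.8 in ADV, with no overlap.

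Lcn2 encodes a small secreted protein that binds bacterial siderophores and so withholds iron from bacteria. In the liver it was at 5.60, 12.5, 30.4 and 16.2 FPKM in LD and at 78.0, 17.4, 199 and 34.4 in ADV. A94, A75 and A115 were above all LD livers, while A91 was near the LD mean of 16.2 ± 10.5 (SD, n = 4). On the log2 scale the difference was 2.01 (SE 0.73, 95% interval 0.37 to 3.65), with an adjusted p of 0.373 by limma and an exact permutation p of 0.0571. Of 11 neutrophil markers the summed level was 7.66 to 13.7 FPKM in LD and 5.29 to 120 in ADV, and the top of that range was A94, where Retnlg was at 25.6 FPKM against 0.203 to 1.73 in the other 7 livers. Among the 8 neutrophil markers tested the log2 fold changes ran from Cxcr2 (-0.09) to Retnlg (1.27), and 0 passed the adjusted limit. Of the 8, 7 were above 0, against 65.7% of all genes, and the median was 0.58, against 0.10. Without A94 3 of the 8 were above 0, against 54.5% of all genes, and the median was -0.20, against 0.03. Without A94 the log2 fold change of Lcn2 was 1.39, and the part of neutrophils in the value of A94 was not tested.

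Hp encodes haptoglobin, which captures free haemoglobin so that macrophages can clear it, and it was the most abundant of the 10 in the liver. It was at 1971, 1899.7, 2966 and 2158 FPKM in LD and at 3900.3, 1818, 3642 and 3052 in ADV. A75, A94 and A115 were again above all LD mice and A91 was the lowest of all 8. Its log2 fold change was 0.43 (SE 0.26, 95% interval -0.16 to 1.02), with an adjusted p of 0.502 by limma and an exact permutation p of 0.229.

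Apcs encodes serum amyloid P, a pentraxin that binds amyloid fibrils and microbial surfaces and is the chief acute phase pentraxin of the mouse. It was at 91.3, 91.9, 113 and 65.8 FPKM in LD and at 291, 114, 318 and 176 in ADV. The groups did not overlap, although the lowest ADV mouse (A91, 114.0) and the highest LD mouse (L86, 112.8) were nearly level. The means were 90.4 ± 19.3 and 225 ± 96.1 FPKM (SD, n = 4 each), and the log2 fold change was 1.22 (SE 0.31, 95% interval 0.52 to 1.93), with an adjusted p of 0.296 by limma and an exact permutation p of 0.0286. Crp, the related pentraxin that dominates the human response, was at 248 to 312 FPKM in LD and 205 to 382 in ADV, and differed by 0.09 on the log2 scale (limma, adjusted p = 0.852).

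Itih4, a plasma kallikrein substrate of the inter-alpha-trypsin inhibitor family, was at 504, 485, 819 and 594 FPKM in LD and at 1012, 535, 683 and 859.7 in ADV. Only A75 and A115 were above the highest LD mouse. Its log2 fold change was 0.36 (SE 0.23, 95% interval -0.16 to 0.87), with an adjusted p of 0.523 by limma. In order of their LD means the liver levels ran from Hp (2249 ± 490.4 FPKM) through Orm1, Itih4 (600.4 ± 153), Saa4 (222 ± 39.6), Apcs, Saa1, Orm2 (31.8 ± 22.1), Saa2 (31.1 ± 21.7) and Lcn2 to Saa3 (5.74 ± 1.04; SD, n = 4). From Apcs down to Saa3 the ranges of mean ± SD of neighbouring genes overlapped, and from Hp down to Apcs they did not.

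**Figure D2:**
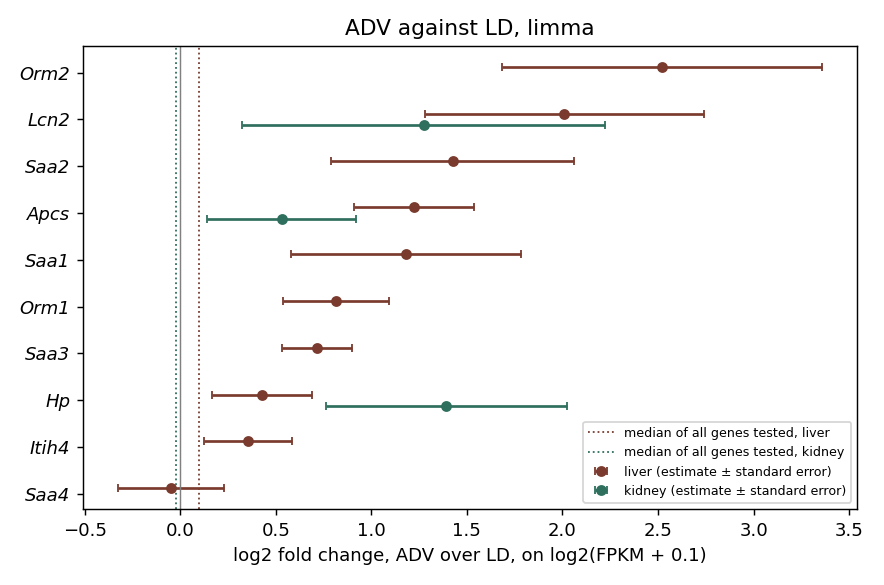
Log2 fold change of ADV over LD with its standard error for each gene tested (limma, 4 mice a group), liver in brown and kidney in green; dotted lines mark the median of all genes tested in each organ, 0.10 and -0.02. Orm2 and Lcn2 lie farthest to the right and have the widest errors, and Saa4 lies at 0.

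The same mice were high for most of the genes. A75 was among the 3 highest livers for all 10 genes and the highest for 4, A94 was the highest for 5, and A115 for 1. A91, which shared the ADV schedule, was among the 3 lowest livers for 5 of the 10. Within LD, L63 was among the 3 lowest for all 10 and L86 was among the 3 highest for 3. Together the 10 genes took 0.529% to 0.819% of all fragments in the LD livers, and 1.15%, 0.538%, 1.03% and 0.899% in A75, A91, A94 and A115. The SD of log2 levels between mice was larger in ADV than in LD for 10 of the 10 genes, with medians of 0.33 in LD and 0.65 in ADV, while the medians over all genes tested were 0.17 and 0.27. The difference in spread was not tested.

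**Figure D3:**
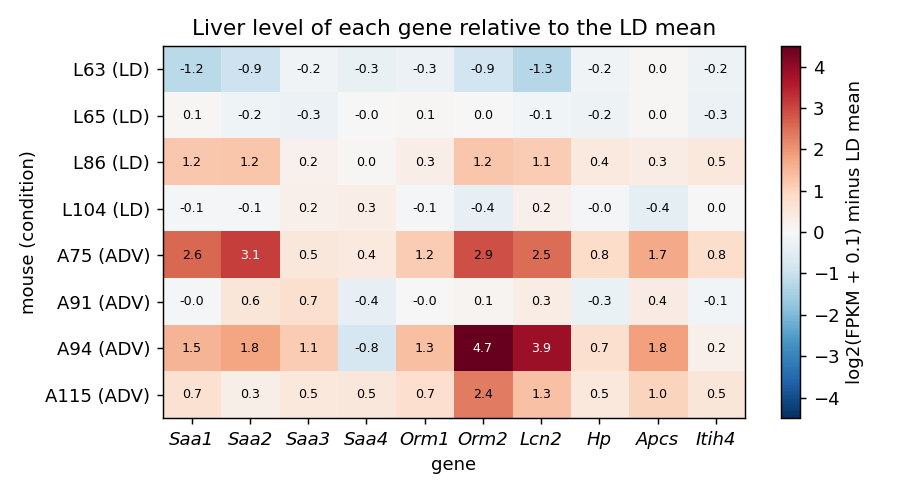
Liver level of each gene in each mouse as the difference in log2(FPKM + 0.1) from the LD mean, red above it and blue below it. The rows of A75 and A94 are red for nearly every gene, A115 is red to a lesser degree, and A91 is close to the LD mice.

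Pairs of genes tracked each other across the 8 livers. Of the 45 pairs, 40 had a Pearson r above 0, and 26 had an adjusted permutation p under 0.05 by Pearson and 14 by Spearman. The share among pairs of all genes was not computed, so neither these counts nor those below set the group apart. The closest pair was Orm1 and Orm2 (r = 0.98, adjusted p = 0.00167; rho = 0.98, adjusted p = 0.00893, permutation tests), and r was 0.99 without A75 and A94, the mice farthest from the median. Saa1 and Saa2 gave r = 0.96 (adjusted p = 0.0038; rho = 0.88, adjusted p = 0.0272, permutation tests), and 0.88 without L63 and A75. Orm2 and Lcn2, which lie on different chromosomes, gave r = 0.97 (rho = 0.98), and 0.88 without A75 and A94. Saa4 stood apart over all 8 livers, with r between -0.33 and 0.52 to the other genes. That rested in part on its farthest mice. Without A94 and A115 r was 0.68 with Orm1, 0.63 with Orm2, 0.72 with Lcn2, 0.72 with Hp, 0.69 with Itih4 and 0.38 with Apcs. With Saa1 it was -0.39 without L63 and A75. These relations mix the difference between schedules with that between mice. With each schedule's mean removed, 41 of the 45 pairs had r above 0, and 14 had an unadjusted p under 0.05 by Pearson and 14 by Spearman (exact permutation within schedules, 576 assignments). The smallest p these assignments allow is 0.00174, which for a single pair among 45 adjusts to 0.0781. A single pair could therefore not pass, although several pairs with small p-values together could have. After adjustment 0 pairs had a p under 0.05 in these permutation tests. Orm1 and Orm2 then gave r = 0.96, Saa1 and Saa2 0.94 and Orm2 and Lcn2 0.94 (adjusted p = 0.0781, 0.0911 and 0.0911, exact permutation). Saa4 then gave r between -0.50 and 0.63, and Saa3 gave 0.20 with Saa1, 0.02 with Itih4 and 0.62 with Lcn2.

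Upstream of the 10 genes in the liver, few cytokines were measurable. Of 7 ligands only Il1a and Il1b passed the filter, and Il1b was at 1.40 to 3.27 FPKM in LD and 1.41 to 6.62 in ADV (log2 fold change 0.47, adjusted p = 0.637 by limma), while Il1a had a log2 fold change of 0.22. Both were highest in A94, and the median of the pair was 0.34, or -0.05 without A94. Il6 was at or below 0.0774 FPKM in every liver, so its RNA in the liver itself was close to the limit of detection. Of 8 receptors, 0 passed an adjusted p of 0.05 and 5 had a log2 fold change above 0, against 65.7% of all genes. Il6ra, the interleukin 6 receptor chain that hepatocytes carry, was at 15.2 to 19.6 FPKM in LD and at 10.4 to 12.6 in ADV. All ADV livers were below all LD livers, as in 1.89% of all genes tested, and the log2 fold change was -0.57 (SE 0.12, adjusted p = 0.247 by limma). Osmr, the oncostatin M receptor, differed most in the other direction (log2 fold change 0.62, SE 0.27, adjusted p = 0.416 by limma).

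Of 12 signal transducers and transcription factors 0 passed the adjusted limit, and their median log2 fold change was 0.04. The extremes were Cebpd, the C/EBP factor that is itself induced in the response (0.45, SE 0.16, adjusted p = 0.372 by limma), and Hnf4a, which maintains hepatocyte identity (-0.42, SE 0.16, adjusted p = 0.378 by limma). Stat3 was at 14.9 to 33.0 FPKM in LD and 16.9 to 29.2 in ADV. Among 6 inhibitors of the response 5 were tested and 0 passed, from Il1rn, the interleukin 1 receptor antagonist (0.83, SE 0.59), to Nfkbia (-0.10, SE 0.15). Their median was 0.15, or -0.03 without A94. Il1rn was at 4.70 FPKM in A94 and at most 1.53 in the other livers.

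Beyond the 10 genes, 20 of 21 other positive acute phase genes were in the tables and tested in the liver. Their log2 fold changes were above 0 for 19 of the 20, against 65.7% of all genes, with a median of 0.35 against 0.10, and 0 passed the adjusted limit. Unadjusted p-values were under 0.05 for 3, against 11.8% of all genes, and all 3 were higher in ADV: Orm3 (1.32, SE 0.32), Cp or ceruloplasmin, a copper carrier (0.51, SE 0.14), and Cd14, a lipopolysaccharide co-receptor (0.80, SE 0.27). Hamp, which encodes the iron hormone hepcidin, was the lowest of the list (-0.04, SE 0.31). The 10 negative acute phase genes, whose products fall in inflammation, had a median of -0.05, with 3 of 10 above 0, against 65.7% of all genes, and 0 past the adjusted limit. Alb (albumin) had a log2 fold change of -0.05, and the range ran from Serpina6, the corticosteroid carrier (-0.50, SE 0.27), to Fetub (0.23, SE 0.33). Fetub was at 663 FPKM in A94, at 183 to 298 in the other ADV livers and at 251 to 299 in LD. Of 9 receptors and uptake genes 6 were tested, 6 were above 0, against 65.7%, and 0 passed the adjusted limit. They ran from Scarb1 (0.07) to Cd163, the macrophage receptor for the haptoglobin and haemoglobin complex (1.29, SE 0.33, adjusted p = 0.296 by limma).

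The liver held the markers of its tissue: hepatocyte markers summed to 63831 to 78348 FPKM in LD and 64207 to 73048 in ADV, from Tat (log2 fold change -0.39) to Apoc3 (0.24), and Slc34a1, Aqp2, Slc22a6 and Slc12a1 of the nephron were at 0 in all 8. Lrp2, Slc5a2 and Slc12a3 were below 0.1 FPKM, and Umod reached 1.33 FPKM in A94. Lymphocyte markers summed to 5.01 to 10.3 FPKM in LD and 5.80 to 649 in ADV, with Jchain, a plasma cell gene, at 600.1 FPKM in A94 and at 3.06 to 15.5 in the other livers. Their log2 fold changes ran from Cd8a (0.54) to Jchain (2.29), with a median of 1.41, or 0.36 without A94. Adipocyte markers summed to 13.3 to 15.7 FPKM in LD and 18.5 to 69.7 in ADV, with Fabp4 highest in A94 and Adipoq at 2.10 FPKM in A75 against at most 0.105 in the others, and Fabp4 (1.17) and Cfd (0.67) were the adipocyte markers tested. Of the injured tubule markers 3 were tested in the liver, from Sox9 (-0.01) to Spp1 (1.11), with a median of 0.60, or 0.09 without A94. This list summed to 273 FPKM in A94 and to at most 42.5 in the other livers. None of these markers passed the adjusted limit in limma. A94 and A75 were also the highest livers for 9 of the 10 acute phase genes, and the part of these cells in those values was not tested.

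In the kidney only Lcn2, Hp and Apcs passed the filter, 3 of the 10, and 0 of the 3 passed an adjusted p of 0.05, against 0% of all 14452 genes; the unadjusted p was under 0.05 for 0 of the 3, against 3.1% (448 genes), and all 3 had a log2 fold change above 0, against 46.4%. Without the A115 kidney all 3 were again above 0, against 67.7% of all genes, whose median was then 0.20 in place of -0.02, and the unadjusted p was under 0.05 for Hp, against 37.1%. Lcn2 was the 1 gene of the group as abundant in kidney as in liver. It was at 11.4, 19.2, 54.9 and 16.8 FPKM in the LD kidneys and at 191, 11.98, 21.5 and 141 in the ADV kidneys. A75 and A115 were far above the rest, A91 and A94 lay in the LD range, and L86 was the highest LD mouse. The means were 25.5 ± 19.8 and 91.1 ± 88.4 FPKM (SD, n = 4 each), and the log2 fold change was 1.27 (SE 0.95, 95% interval -0.91 to 3.45), with an adjusted p of 0.9999 by limma and an exact permutation p of 0.257. It was 0.64 without A75, 0.79 without A115 and 1.97 without A91.

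Hp was low in the kidney, at 0.423, 0.916, 0.869 and 0.925 FPKM in LD and at 6.38, 0.928, 3.54 and 0.935 in ADV. A75 and A94 stood above the other 6 kidneys, which lay below 1 FPKM. The groups did not overlap, as in 0.962% of all genes, but A91 (22 fragments) and L104 (22.5 fragments) differed by less than 1 fragment before scaling. The log2 fold change was 1.39 (SE 0.63, 95% interval -0.05 to 2.84), with an adjusted p of 0.9999 by limma and an exact permutation p of 0.0286. Without the A115 kidney it was 1.76 with an adjusted p of 0.0611 by limma, the lowest over 19 alternatives (up to 1), and 37.1% of all genes then had an unadjusted p under 0.05. Without A75 it was 0.88 (adjusted p = 0.995 by limma), and with a pseudocount of 1 it was 0.92. Apcs was at 0.630, 0.773, 0.978 and 1.07 FPKM in LD and at 1.92, 1.15, 0.569 and 1.97 in ADV (log2 fold change 0.53, SE 0.39, 95% interval -0.36 to 1.43; adjusted p = 0.9999 by limma). The Apcs value was 0.33 without A115, 0.34 without A75 and 0.88 without A94.

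The other 7 genes were at or near 0 in the kidney. Saa1 gave 33 fragments in A75 (3.04 FPKM) and 24 in A115 (2.08 FPKM), 1 in L63 and 0 in the other 5 kidneys, where 0 fragments allow a level of up to 0.253 to 0.291 FPKM (3 fragments, counting error only). Saa2 and Orm2 gave fragments in 1 kidney each, A75, with 2 and 1. Saa3 reached 0.915 FPKM in A94, Orm1 0.541 in A115, Itih4 0.242 in A94 and Saa4 0.0821 in A75. For Saa2 and Orm2 the 7 kidneys with 0 fragments allow levels above that of A75, so those kidneys cannot be ranked. The 10 hepatocyte markers summed to 1022 to 1104 FPKM in the LD kidneys and 748 to 999.5 in the ADV kidneys, most of it Cyp2e1 (683 to 1057 FPKM). Of these 10, 6 were tested and 0 passed the adjusted limit in limma, with log2 fold changes from F2 (-0.75) to Ttr (0.28). Cps1 was at 0 in all 8 kidneys, and Alb was at 2.83 to 5.71 FPKM, with A75 (3.23) and A94 (3.83) below all 4 LD kidneys. Levels in the 2 organs were set side by side only as a description, since each table was scaled within itself; mean Hp was 2676 FPKM in liver and 1.87 in kidney, and mean Lcn2 49.2 and 58.3.

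**Figure D4:**
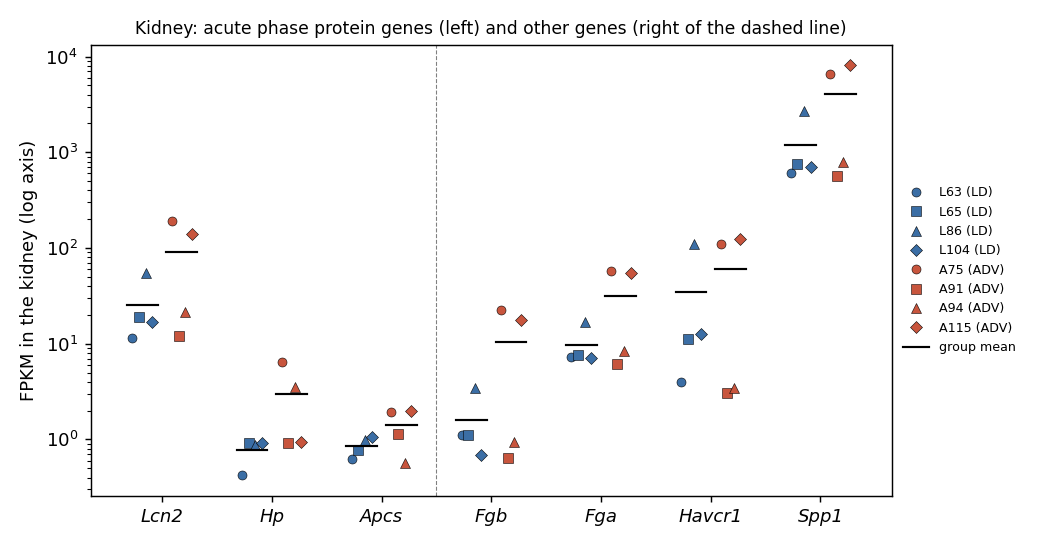
Kidney level of the 3 acute phase protein genes that passed the filter (left of the dashed line) and of 4 other genes (right), as FPKM on a log axis for each mouse, LD in blue and ADV in red, with a black bar for the mean of 4 mice. For Lcn2, Fgb, Fga, Havcr1 and Spp1 the mice A75, A115 and L86 are the highest 3; for Hp they are not.

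The 3 kidneys with the most Lcn2 (A75, A115 and L86) were also the highest 3 for 4 of 5 markers of injured tubules. Of those 5 markers, the largest difference in means was for Spp1, which encodes osteopontin, at 605, 759, 2676 and 709 FPKM in LD and at 6636, 563, 786 and 8133 in ADV (log2 fold change 1.19, SE 0.98, adjusted p = 0.9999 by limma). Krt20 differed most the other way (-0.95, SE 1.10), and was at 15.4 FPKM in L86, 3.23 in A115 and 2.81 in A75 against at most 1.63 in the rest. Sox9 was at 3.01, 1.56 and 1.88 FPKM in the same 3 kidneys and at most 0.551 elsewhere. Vcam1 was highest in L86 (45.3 FPKM) and A115 (33.4), then in A94 (24.1) and A75 (20.96). Havcr1, the tubule injury marker KIM-1, named here after its values were seen, was at 111 FPKM in L86 and A75 and 123 in A115, and at 3.07 to 12.6 in the other 5 kidneys. These 3 kidneys came from both schedules. The A115 kidney also held low nephron marker levels, with Slc34a1 at 154 FPKM against 801 to 1553 in the other 7. Whether injured tubules account for the Lcn2 values was not tested.

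Of the other positive acute phase genes 16 were tested in the kidney, 15 had a log2 fold change above 0, against 46.4% of all genes, and their median was 0.73, against -0.02. Without the A115 kidney 16 of the 16 were above 0, against 67.7%, and the medians were 0.83 and 0.20. Without the A75 kidney 12 of the 16 were above 0, against 38.7%, and the medians were 0.50 and -0.09. None passed the adjusted limit in limma, and 1 (Fgl1, 0.74, SE 0.22) had an unadjusted p under 0.05, against 3.1% of all genes. C3, the central complement component, had the widest difference (1.78, SE 1.07), with 5.76, 10.3, 55.7 and 7.62 FPKM in LD and 81.5, 5.53, 126 and 62.3 in ADV. Cfb was at the other end (-0.17, SE 0.37). The fibrinogen chain Fgb was at 22.3 FPKM in A75, 17.6 in A115, 3.41 in L86 and at most 1.11 elsewhere, the same 3 kidneys as for Lcn2.

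Negative acute phase genes had a median of 0.42 in the kidney over 7 tested, from Fetub (-0.77, SE 0.43) to Gc, the vitamin D carrier (1.25, SE 0.63). Among the transducers Cebpd had the largest difference (1.28, SE 0.55, adjusted p = 0.9999 by limma) and reached 14.4 FPKM in A75. Socs3, the feedback inhibitor of STAT3 signalling, led the 6 inhibitors (1.25, SE 0.85), at 14.05 FPKM in A75, 7.35 in L86 and 6.23 in A94, and Pias3 was the lowest (-0.02). Receptors ran from Il1rap (-0.38) to Osmr (0.63), which was highest in A115 at 16.5 FPKM, the 2 ligands tested were Lif (0.76) and Il1b (-0.30), and the uptake genes ran from Cubn (-0.24) to Ager (1.19). Across these lists 0 genes passed the adjusted limit in limma. Without the A115 kidney 2 of the 12 transducers, 2 of the 8 uptake genes (Slc22a17 and Ager) and 3 nephron markers (Slc34a1, Aqp2 and Slc5a2) passed it, when 2726 of all 14452 genes did. Lymphocyte and neutrophil markers were again highest in A94, with sums of 491 and 27.6 FPKM against LD ranges of 32.5 to 45.4 and 1.70 to 3.95, and macrophage markers reached 326 against 47.4 to 153. Log2 fold changes of the markers tested ran from Csf3r (0.13) to Retnlg (1.85) for neutrophils, from Csf1r (0.13) to Mrc1 (1.19) for macrophages and from Adipoq (0.12) to Cfd (0.22) for adipocytes, and Slc22a6 was the lowest nephron marker (-0.26). None of these markers passed the adjusted limit in limma.

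Liver and kidney of the same mouse were compared for the 3 genes expressed in both. For Lcn2 Pearson's r over 8 mice was 0.50 (p = 0.209, adjusted 0.314) and Spearman's rho 0.76 (p = 0.0368, adjusted 0.110; permutation tests). The mouse A94 had the highest Lcn2 in liver and an ordinary level in kidney, and without A94 and L63 r was 0.91. For Hp r was 0.78 (p = 0.0122, adjusted 0.0366) and rho 0.64 (p = 0.0962, adjusted 0.144; permutation tests), and r was 0.26 without A75 and A94, so the relation rests on those mice. Apcs gave r = 0.23 (p = 0.572) and rho = 0.17 (p = 0.703) by permutation, and r = 0.68 without A75 and A94. With each schedule's mean removed, r was 0.31 for Lcn2 (p = 0.540, adjusted 0.675), 0.69 for Hp (p = 0.115, adjusted 0.344) and -0.25 for Apcs (p = 0.675, adjusted 0.675), by exact permutation within schedules. The Hp relation thus did not hold within schedules at an adjusted p of 0.05, and that of Apcs changed sign.

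**Figure D5:**
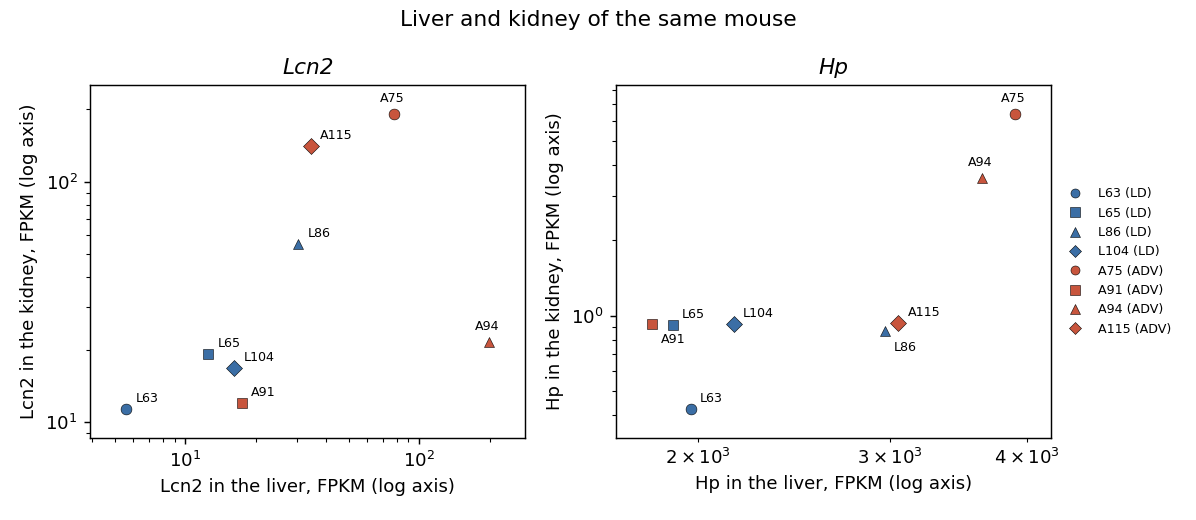
Level of Lcn2 (left) and Hp (right) in the liver (horizontal, FPKM, log axis) and the kidney (vertical, FPKM, log axis) of the same mouse, LD in blue and ADV in red. For Lcn2, A94 sits far to the right of the line of the other mice; for Hp, A75 and A94 sit above the other 6.

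The difference between the ADV effect in liver and that in kidney was tested in 1 fit over all 16 libraries. It was 0.74 for Lcn2 (SE 1.30, 95% interval -2.04 to 3.51), -0.96 for Hp (SE 0.70, 95% interval -2.47 to 0.54) and 0.69 for Apcs (SE 0.52, 95% interval -0.42 to 1.81) on the log2 scale. Of the 3 genes 0 passed an adjusted p of 0.05 (adjusted p = 0.9999 each by limma), against 0% of 12319 genes, and 3.46% of all genes had an unadjusted p under 0.05. Without A94 the difference was -0.30 for Lcn2 and 0.14 for Apcs, and without A75 it was -0.58 for Hp. The intervals span differences of several fold in either direction for Lcn2. Effects in the 2 organs were therefore not shown to differ for any of the 3 genes.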

How the data were processed

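Poly(A)-selected stranded RNA-seq of liver and kidney was used as FPKM values deposited by the authors, who trimmed adaptors, mapped reads to mm10 with STAR 2.5.4b, removed reads of low mapping quality and quantified exons of UCSC known canonical genes with HOMER. FPKM times exon length and library total gave fragments in steps of 0.5 for 100% of values above 0 (tolerance 0.01 fragment), and libraries held 15688495 to 24285055 fragments on genes. The count model of the study was not rerun, and limma-voom on the fragments so recovered was run as an alternative. Genes with a mean above 0.5 CPM of exon fragments, the study's limit for an expressed gene, were tested, ADV against LD, with limma 3.58.1 (R 4.3.3; lmFit, eBayes with trend) on log2(FPKM + 0.1), unpaired, with Benjamini-Hochberg adjustment. The scripts were tested on simulated data. Intervals are 95% limits of the limma fit. P-values of single genes by exact permutation (Python 3.11.15) are two-sided. Motifs were searched in RefSeq promoters and identities taken from GENCODE transcripts with Biopython 1.88.

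The 10 genes and the other gene lists were chosen with earlier results of these data known. The text names each of the 10 genes, of each other list the tested genes with the highest and lowest log2 fold change (some are not reported here), and for Saa1, Saa3 and Lcn2 the 5 genes with the most similar pattern; further genes were named after their values were seen. Liver and kidney came from the same animals. Correlations of deviations from group means between the organs of a mouse were -0.02 to 0.55 (median between different mice -0.01). Alternatives were other pseudocounts, filters and scalings, limma without trend, limma-voom on the recovered fragments, both organs in 1 fit with and without the mouse as block, leaving out each mouse, and, added after seeing the data, leaving out A115 with median ratio scaling, and counts without A94, A115 or A75, and correlations with each schedule's mean removed. Of columns of per-sample values, 0 were left unmapped.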

Additional observations from a re-analysis of the deposited data

Results flagged for a closer look

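Of 26 groups of 4 mice examined (the 10 genes in the liver and the 3 tested in the kidney, in each schedule), 1 held a mouse set off from the rest of its group: Hp in the LD kidneys, where L63 was at 0.423 FPKM and the next mouse at 0.869, a gap of 0.916 of the group's range on the log2(FPKM + 0.1) scale. This gap was above Dixon's 95% critical value for 4 samples, which chance exceeds in about 1 of 20 groups. L63 also gave the lowest liver level of 5 of the 10 genes. The kidney value rests on 11 fragments.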

How the results depend on the processing

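The number of acute phase genes with an adjusted p under 0.05 was 0 in liver, kidney and the difference between organs under each alternative run. Their log2 fold changes kept their sign in 297 of 301 alternative values. Those that turned were Saa4 in liver (0.05 without L104, 0.06 without A91 and 0.19 without A94, against -0.05; -0.23 to 0.19 over all 8 mice left out in turn) and the Lcn2 difference between organs (-0.30 without A94, against 0.74; -0.30 to 1.45 over all 8). Leaving out 1 mouse moved the liver values of Orm2 between 1.79 and 3.32, Lcn2 between 1.39 and 2.56, Saa1 between 0.72 and 1.59, Saa2 between 0.86 (without A75) and 1.84, Hp between 0.30 and 0.67 (without A91) and Itih4 between 0.21 (without A75) and 0.52. In the kidney it moved Lcn2 between 0.64 (without A75) and 1.97 (without A91), Hp between 0.88 (without A75) and 1.77, and Apcs between 0.33 (without A115) and 0.88 (without A94); with median ratio scaling and without A115, kidney Apcs was 0.18 and kidney Lcn2 0.62. It moved the difference between organs between 0.14 (without A94) and 0.97 for Apcs and between -1.35 and -0.58 (without A75) for Hp. A pseudocount of 1 gave 0.92 for Hp and 0.33 for Apcs in the kidney and -0.49 for the Hp difference. The lowest adjusted p of any member was 0.0611 (Hp, kidney, without A115; 0.0676 with median ratio scaling as well), and in the liver 0.0828 (Apcs, without A91; 0.0828 to 0.643 over its alternatives). Counts over all genes were less steady. In the liver 1 gene passed, 6 without the filter on low values, and 0 (without L65, L104 or A75) to 9 (without A91) when 1 mouse was left out. In the kidney 0 passed, 1 with both organs in 1 fit, 0 to 2726 when 1 mouse was left out (2726 without A115), and 2124 with median ratio scaling and without A115. For the difference between organs 0 passed, 1 with median ratio scaling, 1 with quantile normalization, 0 to 458 when 1 mouse was left out (458 without A115), and 652 with median ratio scaling and without A115. The cause was not tested. With the mouse as replicate block (pairing of liver and kidney by animal, consensus correlation 0.10) 1 gene passed in the kidney, and no call of an acute phase gene changed. Counts of fragments limit the kidney values: Hp rests on 11 to 154 fragments and Apcs on 11 to 37.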

Other observations

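Genes outside the group whose liver or kidney pattern over the 8 mice was most like that of 3 of its members are given as a description, with no test. Most like Lcn2 in the liver were Fam167a, Reep5, Atp10a, B4galt6 and Cd9 (Pearson r of log2 levels 0.98 to 0.99 over 8 livers). Cd9, a tetraspanin of the cell surface, had mean levels of 8.57 FPKM in LD and 16.7 in ADV. In the kidney they were Spp1, Fga, Plet1, Fgb and Adamts1 (r 0.97 to 0.99), 2 of them fibrinogen chains. Fga was at 9.67 FPKM on average in LD kidneys and 31.7 in ADV kidneys. No gene was on both lists.

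Most like Saa1 in the liver were Sppl2a, Epb41l1, Gm38426, Tmem229a and Gas6 (r 0.94 to 0.98 over 8 livers). Gas6, which encodes a ligand of TAM receptors used in the clearance of dying cells, was at 16.6 FPKM in LD and 24.1 in ADV. Most like Saa3 were C030034I22Rik, Gmpr, Yeats4, Slc31a2 and Abraxas1 (r 0.96 to 0.98). The 5 genes of Saa1 and the 5 of Saa3 were all different. Saa1 and Saa3 themselves gave r = 0.54 over the 8 livers, so no gene could be this close to both.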
